A study of Mus musculus with 24 samples.

Results

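Knockdown of OCT4 together with SOX2, and knockdown of SOX2 with 1 or both of its siRNAs, were compared CpG by CpG on a DNA fragment inserted in mouse embryonic stem cells (ESCs). The members were chosen by their treatment labels and are 4 of the 24 samples in the series: cells given a non-targeting siRNA, cells given siSOX2 b alone, cells given siSOX2 a + b, and cells given all siRNAs at once (siOCT4 a + b and siSOX2 a + b). The siOCT4 a + b library, the remaining one of 5 siRNA libraries, enters only where the combined knockdown is set against both of its parts. Each treatment is 1 library of bisulfite-sequenced amplicons, in which a cytosine read as C was methylated, and CG methylation is the share of reads methylated at a CpG.

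All 5 libraries were made from cells of an ESC line that carries FR1, a fragment of bacterial DNA, with the wild-type OCT4SOX2 motif at its centre. FR1 had been methylated in vitro with the bacterial methyltransferase M.SssI (+SssI) and placed at the β-globin locus by recombinase-mediated cassette exchange, a Cre-driven swap between LoxP sites. The line was isolated from the transfected pool and is therefore 1 cell line, and the coordinates of the insertion are not given in the sources used here. The siRNAs were given at 25 pM, with no statement of whether that is per siRNA or in total when several were combined, and the DNA was collected 72 h later. The strain label is C57BL/6 X 129S5 for the non-targeting library and C57BL/6 X 129/sv for the 4 knockdown libraries, while the study describes 1 line, so treatment and strain label cannot be told apart in any comparison with the non-targeting library. Levels of OCT4 and SOX2 in these cells were not analysed here, no marker of the ESC state is measured in bisulfite amplicons, and how far either protein was lowered is not judged.

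OCT4 and SOX2 are transcription factors that hold ESCs in the pluripotent state and often bind DNA side by side at a composite motif. Each also helps to maintain the expression of the other, so siRNAs against one factor can lower both. CG methylation is copied onto new DNA strands by DNMT1 and can be removed by dilution over cell divisions or through oxidation by the TET enzymes. Where a transcription factor occupies DNA, nearby CpGs are often found with low methylation, and a fragment such as FR1, which has no regulatory role of its own in the mouse, allows that to be read around a single motif.

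CpGs are named by their distance in bp from the 5′ end of the motif, with U for upstream and D for downstream, so that U103 and U101 are neighbours on the upstream side. Reads covered 18 upstream CpGs (U291 to U32) in every library, and 5 downstream CpGs (D37, D46, D109, D151 and D252) in the 4 knockdown libraries. The non-targeting library had 0 reads downstream, so comparisons with it rest on the upstream CpGs, and the downstream CpGs are compared among knockdowns only. The median number of reads per upstream CpG was 1541.5 for the non-targeting siRNA, 2488 for siSOX2 b, 2853.5 for siSOX2 a + b, 2471 for siOCT4 a + b and 1511.5 for all siRNAs. Downstream it was 476, 847, 675 and 1162 in the 4 knockdown libraries in that order. With 1 deposited library per treatment, in which any replicates were pooled by the authors, there are no replicates to compare: every test below compares the reads of a pair of libraries and not the treatments, and every interval covers counting error only.

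Averaged over the 18 upstream CpGs, methylation stood at 24.3% (22.2 to 26.5, 95% Wilson interval) with the non-targeting siRNA, 29.4% (27.6 to 31.2) with siSOX2 b, 40.4% (38.6 to 42.2) with siSOX2 a + b and 38.6% (36.1 to 41.0) with all siRNAs. The level with siOCT4 a + b was 39.4% (37.5 to 41.3). The order was thus non-targeting, siSOX2 b and then 3 libraries whose intervals overlap. For these means the interval was set at the median number of reads per CpG, since CpGs on the same molecule are not independent. A separate line that carries the methylated fragment with a scrambled motif had 83.6% (81.7 to 85.3), and all 18 upstream CpGs lay below that line in each of the 5 libraries. From the non-targeting level, siSOX2 b covered 8.66% of the distance to the scrambled line, siSOX2 a + b 27.2%, siOCT4 a + b 25.5% and all siRNAs 24.1%.

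**Figure D1:**
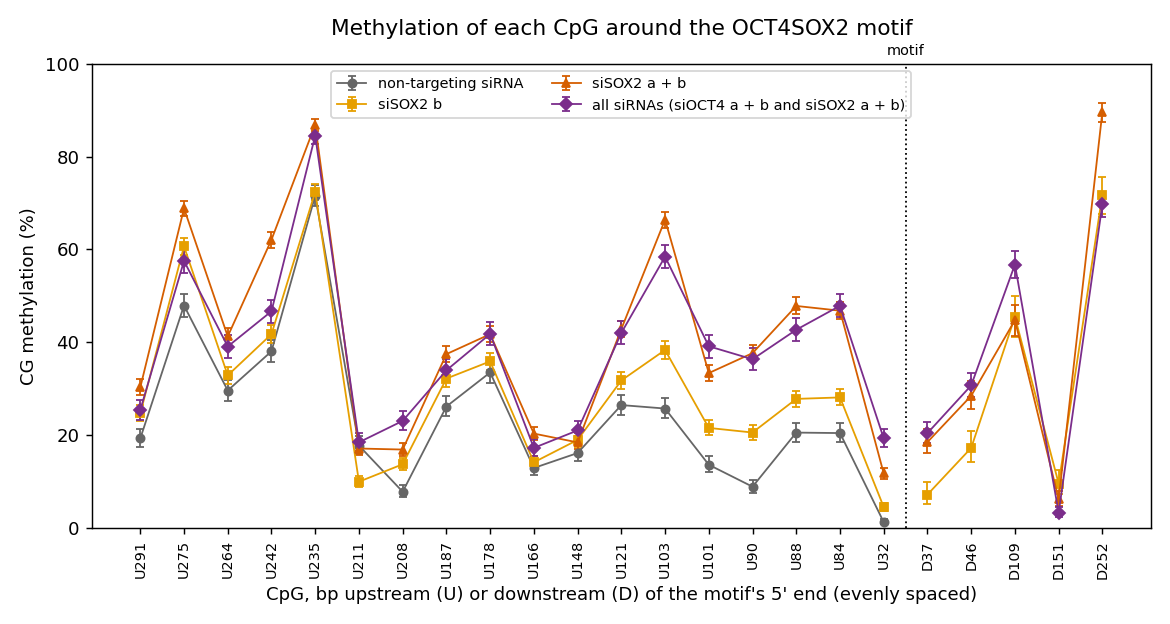
CG methylation (%) at each of the 23 CpGs, ordered by distance from the motif and evenly spaced, for the non-targeting siRNA (grey circles, upstream only), siSOX2 b (yellow squares), siSOX2 a + b (orange triangles) and all siRNAs (purple diamonds); bars are 95% Wilson intervals and the dotted line marks the motif. From U121 to U32 the yellow points lie between the grey points and the other 2 series, whereas at U211 yellow is the lowest.

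Methylation was higher along the upstream part with all siRNAs than with the non-targeting siRNA. Against the non-targeting library the mean difference was 14.3 points (95% Newcombe interval 11.0 to 17.5), and 17 of 18 CpGs were called higher and 0 lower by Fisher's exact test with Benjamini-Hochberg adjustment over all 141 CpG tests, which is 94.4% of the CpGs tested. As a mean over blocks of CpGs, the difference grew towards the motif. It was 8.98 points (5.55 to 12.4) over the 7 CpGs from U291 to U208. Over the 7 from U187 to U101 it was 14.2 points (11.0 to 17.3), and over the 4 from U90 to U32 23.8 points (20.8 to 26.7). In ratio to the non-targeting level these blocks stood at 1.27, 1.64 and 2.87. From CpG to CpG the growth was not steady, with 15.3 points at U208 but 4.34 at U166 and 4.88 at U148. A run of 7 adjoining CpGs from U121 to U32, spanning 90 bp, met the rule for a region of higher methylation (at least 3 consecutive CpGs over more than 50 bp, each called and at least 10 points higher), with a mean difference of 24.2 points.

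The difference was widest at CpG U103, where methylation went from 25.7% with the non-targeting siRNA to 58.4% with all siRNAs, a change of 32.8 points (29.4 to 36.0). CpG U90 followed, at 8.82% and 36.3%, or 27.5 points (24.7 to 30.3). Both sites thus more than doubled, and no interval of theirs overlapped between the libraries. At U32, the CpG nearest to the motif, 18 of 1542 non-targeting reads were methylated against 290 of 1507 reads with all siRNAs, 1.17% against 19.2%, a ratio of 16.5. At U291, the farthest, the levels were 19.2% and 25.4%, a difference of 6.14 points (3.19 to 9.09). The smallest differences were 0.706 points (-2.02 to 3.44) at U211, the CpG that was not called (adjusted p = 0.661, Fisher's exact test), and 4.34 points (1.80 to 6.88) at U166.

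Setting the combined knockdown beside siSOX2 a + b asked whether adding the OCT4 siRNAs moved methylation further. Over all 23 CpGs the mean with all siRNAs differed by -1.74 points (-4.76 to 1.31) from siSOX2 a + b, 38.0% against 39.8%, and the interval holds 0. The upstream mean differed by -1.86 points (-4.88 to 1.199) and the downstream mean by -1.33 points (-5.61 to 2.93). The spread between cultures given the same siRNAs is not known. In single CpGs the libraries were not alike: 5 of 23 CpGs were called higher with all siRNAs (21.7% of those tested) and 10 lower (43.5%). The SD of the 23 differences was 7.20 points, beside 1.53 points that counting error gives to a difference at a single CpG.

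**Figure D2:**
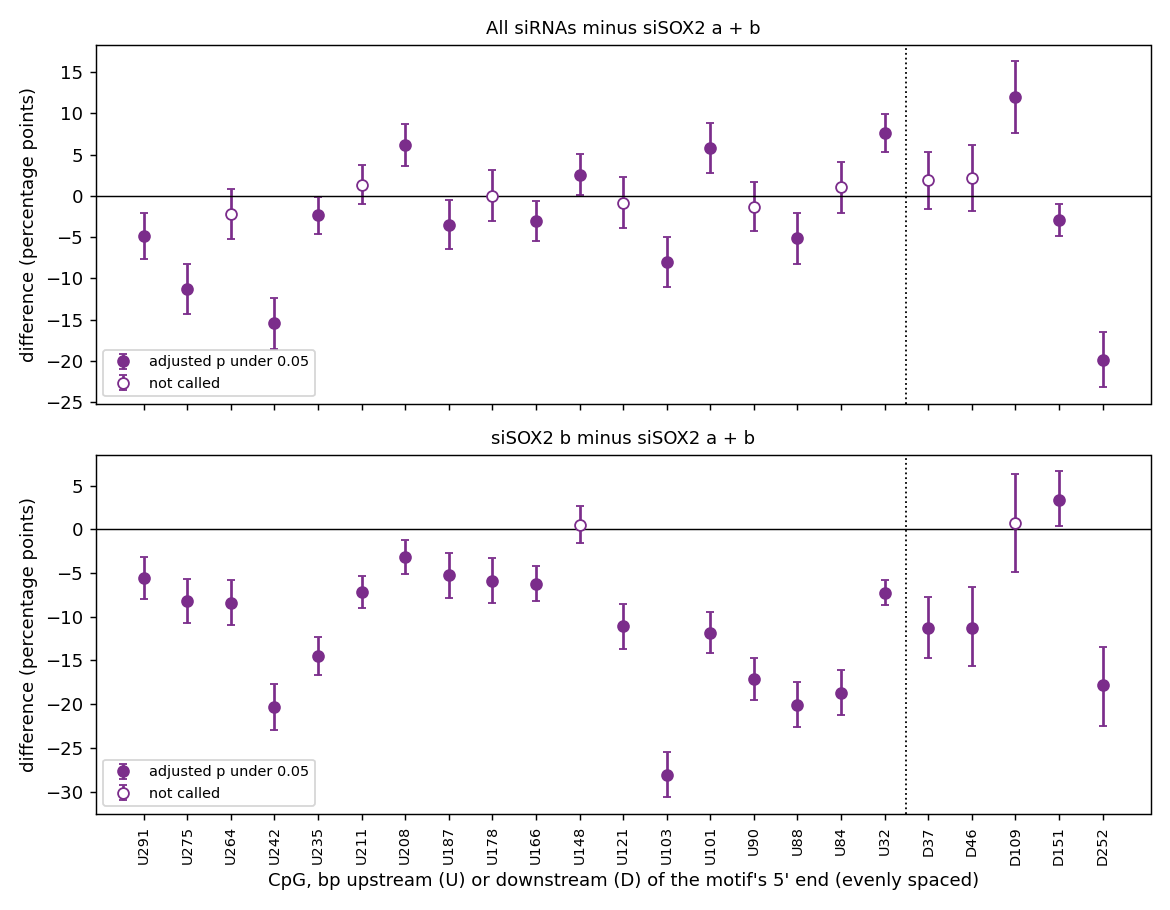
Difference in CG methylation (percentage points) from the siSOX2 a + b library at each of the 23 CpGs, for all siRNAs (top) and for siSOX2 b (bottom); bars are 95% Newcombe intervals, filled points have an adjusted p under 0.05 and the dotted line marks the motif. All siRNAs scatter on either side of 0, from -19.9 points at D252 to 12.0 points at D109, while siSOX2 b lies below 0 at 20 CpGs.

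The CpGs where the combined knockdown lay lowest against siSOX2 a + b were the last one downstream and a pair far upstream. At D252, farthest from the motif on the downstream side, methylation was 89.7% with siSOX2 a + b and 69.8% with all siRNAs, a difference of -19.9 points (-23.2 to -16.5). At this CpG siSOX2 b had 71.8% and siOCT4 a + b 67.1%, so siSOX2 a + b had the highest level of the 4 knockdown libraries. At U242 the same pair of libraries gave 62.1% and 46.7%, a difference of -15.4 points (-18.5 to -12.3), and at U275 68.9% and 57.5%, or -11.3 points (-14.3 to -8.31). The upstream block from U291 to U208 was the only one of the 4 blocks whose mean differed beyond counting error, at -4.09 points (-7.16 to -0.99), against -0.998 points (-3.98 to 2.02) in the middle and 0.543 points (-2.44 to 3.56) next to the motif. CpG U291 itself gave 30.2% and 25.4%.

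Higher levels with all siRNAs were called at 4 upstream CpGs and 1 downstream CpG. CpG U32 had 11.7% methylation with siSOX2 a + b and 19.2% with all siRNAs, 7.57 points more (5.30 to 9.93). The remaining upstream CpGs called higher were U208 (6.18 points), U101 (5.78 points) and U148 (2.59 points). Downstream, CpG D109 had 44.7% and 56.7%, 12.0 points more (7.58 to 16.4), the largest gain in this pair. At D37, the downstream CpG nearest to the motif, the levels of 18.4% and 20.4% differed by 1.93 points (-1.60 to 5.38) and were not called. CpG D151, the least methylated downstream site in this pair of libraries, went the other way, 6.10% with siSOX2 a + b and 3.21% with all siRNAs.

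Adjacent CpGs did not always move together in this pair. CpGs U103 and U101, 2 bp apart, showed -7.98 points (-11.0 to -4.96) and 5.78 points (2.79 to 8.79). Likewise, at U90, U88 and U84 the differences were -1.32, -5.13 and 1.06 points, of which only that at U88 was called.

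Against siOCT4 a + b the upstream mean of the combined knockdown differed by -0.808 points (-3.91 to 2.32) and the downstream mean by 9.08 points (4.67 to 13.3). Of the 23 CpGs, 10 were called higher (43.5%) and 7 lower (30.4%). The downstream gain lay at D37 (7.10% with siOCT4 a + b and 20.4% with all siRNAs), D46 (13.3% and 30.7%) and D109 (38.0% and 56.7%), 3 adjoining CpGs that met the rule for a region, with a mean difference of 16.5 points over 73 bp. At those 3 sites siSOX2 a + b had 18.4%, 28.4% and 44.7%. The downstream profile of the combined knockdown was thus near that of siSOX2 a + b at D37 and D46, above both single-factor libraries at D109, and near siOCT4 a + b and below siSOX2 a + b at D252. At D151 it was called lower than both, with 3.21% beside 6.10% for siSOX2 a + b and 9.91% for siOCT4 a + b.

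Placed between its parts at each upstream CpG, the combined knockdown had the highest level of the 3 libraries at 6 CpGs, a level in between at 4 and the lowest at 8. At 4 of the 6 it was called higher than each of the others (U208, U148, U101 and U32), and at 4 of the 8 it was called lower than each (U275, U242, U166 and U103). The 2 calls at a CpG share the combined library. The largest excess over the higher single-factor library was 7.12 points, at U32, where siOCT4 a + b had 12.1%, and the largest deficit was -15.4 points, at U242.

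Additivity was then examined directly. The study reports that siRNAs against either factor lowered the expression of both. By its approximate figures, all siRNAs together lowered neither factor further than the siRNAs against that factor alone. The sum below is thus a sum of differences between libraries, and the combined library does not stand for a deeper loss of both factors. Whether the levels of the factors bear on the shortfall was not tested. Against the non-targeting library, siSOX2 a + b had 16 of 18 CpGs called higher (88.9%) and 0 lower, and siOCT4 a + b had 16 called higher (88.9%) and 1 lower (5.56%). If these differences had added up in percentage points, the 15.1 points of siOCT4 a + b and the 16.2 points of siSOX2 a + b would have summed to 31.3 points and to an upstream mean of 55.5% with all siRNAs. The observed 38.6% lay 17.0 points short of that (departure -17.0 points, 95% interval -21.1 to -12.8), the observed difference being 45.7% of the sum. All 3 differences share the non-targeting library, whose error is carried in the interval. The departure was -16.4 points (-20.8 to -12.1) in the block from U291 to U208, -15.0 points (-19.1 to -10.9) from U187 to U101 and -21.2 points (-25.1 to -17.3) from U90 to U32. The observed share of the sum was 35.3%, 48.5% and 52.9% in these blocks.

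**Figure D3:**
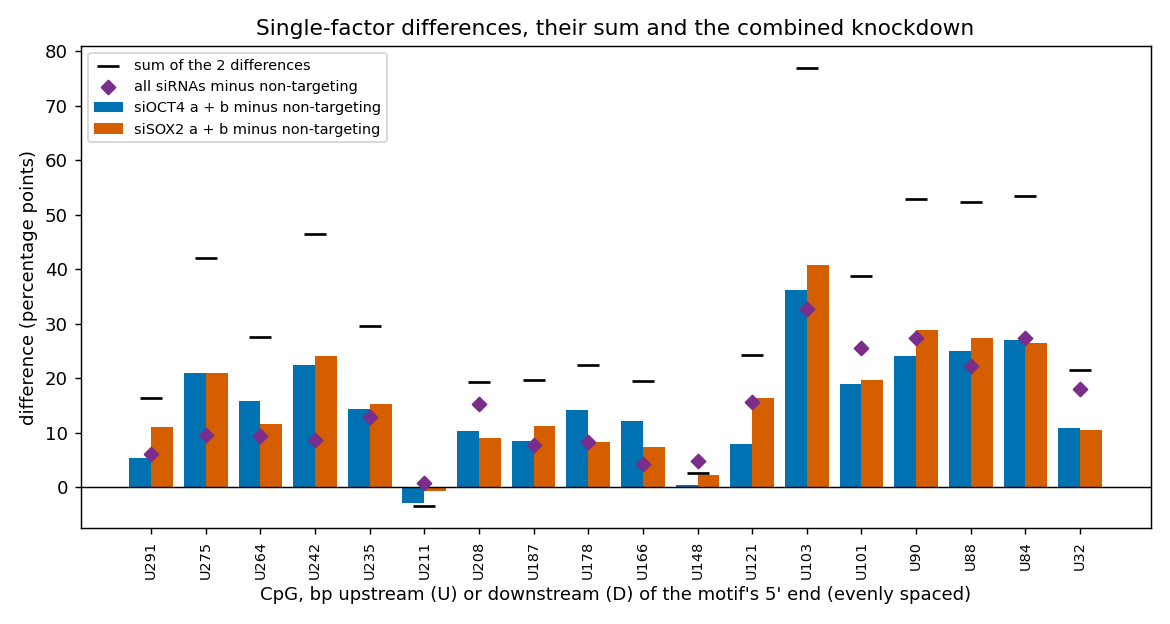
Differences from the non-targeting library (percentage points) at the 18 upstream CpGs, ordered by distance from the motif: bars for siOCT4 a + b (blue) and siSOX2 a + b (orange), black dashes for the sum of both bars and purple diamonds for all siRNAs. The diamonds lie below the dashes at 16 CpGs, and above them at U211 and U148.

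At 16 of 18 upstream CpGs the combined level was below the sum, with the interval wholly below 0 at each of the 16. An interaction term in a logistic model of the reads, adjusted over the 18 CpGs, was below 0 at an adjusted p under 0.05 at the same number, 16, and above 0 at 1. The shortfall was deepest at U103, where 102.7% was expected by addition and 58.4% observed (-44.2 points, -48.4 to -40.0), followed by U242 with 84.5% expected and 46.7% observed (-37.9 points, -42.2 to -33.5). A sum above 100% cannot be reached, which was the case at U103 and at U235 (101.2% expected, 84.6% observed), whereas the logistic term has no such limit. CpG U275, with 89.9% expected and 57.5% observed, departed by -32.4 points, and CpG U88, with 72.8% and 42.7%, by -30.2 points. Among these 16 CpGs the combined knockdown came nearest to the sum, in points, at the site next to the motif: at U32, differences of 11.0 points with siOCT4 a + b and 10.5 points with siSOX2 a + b stood beside 18.1 points with all siRNAs, short of addition by -3.39 points (-6.09 to -0.686). On the log odds scale U32 still had one of the largest departures, -1.87 (SE 0.26), next to -1.89 (SE 0.10) at U103. The term at U32 rests on 18 methylated of 1542 reads in the non-targeting library, or 1.17%, which is near the floor. In the wild-type fragment of the +SssI ESC pool, given no siRNA, U32 had 6.39%. The size of the term at U32 thus depends on which reference is used.

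Exceptions were U211 and U148. At U211 neither single-factor library was above the non-targeting level (differences of -2.83 and -0.634 points), and the combined level of 18.4% exceeded the sum by 4.17 points (0.804 to 7.53). At U148 the single-factor differences were 0.341 and 2.29 points and the combined difference 4.88 points, with a departure of 2.25 points (-1.17 to 5.67) whose interval holds 0. Of the 18 upstream CpGs, these are the ones where the siOCT4 a + b and siSOX2 a + b libraries each differed least from the non-targeting library.

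The siSOX2 b library, with 1 of the SOX2 siRNAs, showed a smaller rise. Its upstream mean was 5.13 points (2.32 to 7.89) above the non-targeting library, with 14 of 18 CpGs called higher (77.8%) and 1 lower (5.56%). By block the difference was 3.45 points (0.41 to 6.44), 5.48 points (2.74 to 8.16) and 7.48 points (5.15 to 9.73) towards the motif. No run of CpGs met the rule for a region, as 3 CpGs were called with at least 10 points: U275, U103 and U90. At U275 methylation rose from 47.9% to 60.7%, by 12.8 points (9.60 to 15.9), and at U103 from 25.7% to 38.3%, by 12.6 points (9.70 to 15.5). At U90 it rose from 8.82% to 20.5%.

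At the CpG nearest to the motif the change was small in points and large in ratio. CpG U32 went from 1.17% (18 of 1542 reads) to 4.42% (110 of 2486 reads), 3.26 points (2.26 to 4.24) and a ratio of 3.79. CpG U291 went from 19.2% to 24.6%. The smallest difference among the CpGs that were higher was at U235, the most methylated upstream CpG in every library, with 71.6% and 72.4% (0.832 points, -2.004 to 3.71). CpG U211 moved against the mean: 17.7% with the non-targeting siRNA and 9.90% with siSOX2 b, a difference of -7.80 points (-10.1 to -5.59, adjusted p = 4e-12, Fisher's exact test). That level was also the lowest of the 5 libraries at this CpG, where siOCT4 a + b had 14.9%, siSOX2 a + b 17.1% and all siRNAs 18.4%. At U208, the adjacent CpG, the order was different, with 7.73% for the non-targeting siRNA and 13.7% for siSOX2 b.

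Against siSOX2 a + b, the library with 1 SOX2 siRNA was lower nearly throughout. The mean over 23 CpGs was 29.6% with siSOX2 b and 39.8% with siSOX2 a + b, a difference of -10.2 points (-12.7 to -7.65). Of these CpGs, 20 were called lower (87%) and 1 higher (4.35%), and U148 and D109 were not called. The gap was -9.62 points (-12.2 to -6.98) in the block farthest upstream, -9.69 points (-12.2 to -7.19) in the middle, -15.8 points (-18.1 to -13.4) next to the motif on the upstream side and -7.26 points (-12.4 to -1.93) downstream.

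**Figure D4:**
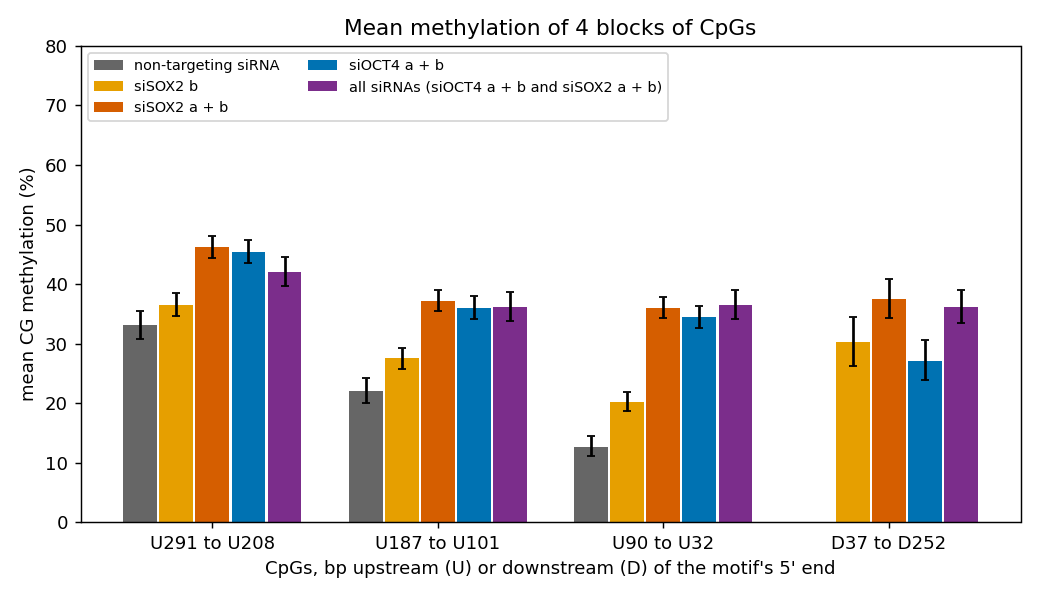
Mean CG methylation (%) of the CpGs in 4 blocks (distances from the motif in bp) for the 5 siRNA libraries; bars start at 0, error bars are 95% Wilson intervals at the median number of reads, and the non-targeting library had no reads in the downstream block. In each upstream block siSOX2 b lies between the non-targeting library and siSOX2 a + b, and next to the motif the means are 12.7%, 20.2% and 36.0%.

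The deepest gap was at U103, with 38.3% for siSOX2 b and 66.4% for siSOX2 a + b (-28.1 points, -30.7 to -25.5), and the next at U242, with 41.7% and 62.1% (-20.4 points, -23.0 to -17.7). CpG U242 had risen by only 3.69 points with siSOX2 b over the non-targeting library, so most of its change lay between 1 and both siRNAs. At U32 the levels were 4.42% and 11.7%, at U291 24.6% and 30.2%, at D37 7.13% and 18.4%, and at D252 71.8% and 89.7%. CpG D151 was the site called higher with siSOX2 b, 9.49% (45 of 474 reads) beside 6.10% (51 of 836 reads), a difference of 3.39 points (0.435 to 6.69, adjusted p = 0.034, Fisher's exact test). CpG D109 was at 45.5% and 44.7% (0.728 points, -4.83 to 6.32) and CpG U148 at 18.9% and 18.4% (0.540 points, -1.55 to 2.64).

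Taking the 3 libraries in order of SOX2 siRNAs, from none to b to a + b, the level was higher at each step at 16 of 18 upstream CpGs, and both steps were called at 13 of them. The exceptions in order were U211, where the level dropped and came back, and U148, where it was 16.1%, 18.9% and 18.4%. At U235, U178 and U166 the order held but the step from the non-targeting siRNA to siSOX2 b was not called. The step from b to a + b was the larger of the pair at 14 CpGs, and was called at 17, while the step from the non-targeting siRNA to b was called upwards at 14. Both steps use the siSOX2 b library. On the upstream mean, the difference made by siSOX2 b was 31.8% of that made by siSOX2 a + b (95% interval 17.0 to 46.5). This share and the count of 14 CpGs with a larger second step both start from the non-targeting level, an upstream mean of 24.3%. The wild-type fragment of the +SssI ESC pool had 17.98%, and a lower start enlarges the step to b. The interval of the share does not cover the choice of reference.

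Along the fragment that share was 26.4% (6.39 to 46.3) in the block from U291 to U208, 36.1% (21.1 to 51.2) from U187 to U101 and 32.1% (23.5 to 40.8) from U90 to U32, with intervals that overlap. The gradation was plain at U103 (25.7%, 38.3% and 66.4%), at U101 (13.6%, 21.5% and 33.3%) and at U90 (8.82%, 20.5% and 37.6%), where each step was called. The adjoining CpGs U88 (20.5%, 27.8% and 47.8%) and U84 (20.4%, 28.1% and 46.8%) followed the same course. Farther out the steps varied, from short ones at U187 (26.1%, 32.2% and 37.4%) and U291 (19.2%, 24.6% and 30.2%) to a step from b to a + b of 14.5 points at U235 and 20.4 points at U242. At U275 (47.9%, 60.7% and 68.9%) the step to b, 12.8 points, exceeded the step to a + b, 8.19 points. As siSOX2 a on its own is not analysed here, the number of SOX2 siRNAs and the identity of the siRNA cannot be told apart.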

How the data were processed

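Per the labels and the study's methods, FR1 amplicons of bisulfite-converted DNA carrying unique molecular identifiers were sequenced on a MiSeq in paired-end mode. The authors used Trim Galore for trimming, Flexbar for demultiplexing, and Bowtie2 with Bismark for alignment (Bismark 0.20.0 in the submitters' processing notes, which also name R 3.6.2), then filtered on non-CG methylation, removed duplicates with UMI_tools and deposited, per CpG, the counts of reads and of methylated reads. These counts were the values used. Columns of all 8 single-line tables carry the same heading, so each table was taken for the sample it is recorded under. The recomputed percentages equal the deposited ones within 5e-09.

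CpGs with at least 10 reads in both libraries were compared by Fisher's exact test (two-sided, scipy 1.17.1, Python 3.11.15), with Benjamini-Hochberg adjustment over the 141 tests of 7 library pairs and calls at an adjusted p under 0.05. Intervals are Wilson and Newcombe (95%). Means over CpGs are unweighted. Additivity was taken as all siRNAs minus siOCT4 a + b minus siSOX2 a + b plus non-targeting, with a normal interval and a Wald test of the logistic interaction. On simulated reads with 9 of 18 CpGs shifted by 10 points, the test for all siRNAs against the non-targeting library called 100% of the shifted CpGs and 3.39% of the others. Those reads held counting error only, with no variation between cultures, and the adjustment there was over the 18 CpGs of that pair. The 3.39% is thus not a rate of false calls between treatments. The CpGs named are, in each main pair, the 2 with the largest and the 2 with the smallest differences, those against the sign of the mean, and the nearest and farthest from the motif on either side; others were named after their values were seen. The members, blocks and rules were chosen with earlier results of these data known. Alternatives changed the adjustment, minimum reads, minimum difference, averaging, additive scale and reference. Sequences of the motif and siRNAs are not used here. Tables of pools, other cell types and other inserted fragments were left out, apart from the +SssI ESC pool and the scrambled and wild-type lines as references.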

Additional observations from a re-analysis of the deposited data

Results flagged for a closer look

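The difference that went with siOCT4 a + b was not the same between libraries with and without siSOX2 a + b. On the mean of the upstream CpGs the difference of the differences was -17.0 points. No p-value was computed for this mean, and its 95% interval of -21.1 to -12.8 covers counting error only. The logistic interaction term, a test of the difference itself on read counts, was below 0 at an adjusted p under 0.05 at 16 of 18 upstream CpGs. Both values rest on 1 library per treatment, so they compare libraries and do not show that the response of the cells differed. They also share the non-targeting library, and the knockdown libraries carry another strain label than that library.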

How the results depend on the processing

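Of 107 recomputed values, 79 stayed within the limits set for a change and 28 moved. The mean difference of all siRNAs from siOCT4 a + b, whose interval holds 0, changed sign from 1.34 points over 23 CpGs to -0.808 points on the 18 upstream CpGs, which the minimum of 1000 reads also leaves. Requiring a difference of at least 10 points left 9 called CpGs for all siRNAs and 3 for siSOX2 b against the non-targeting library, 4 and 11 against siSOX2 a + b, and 5 for all siRNAs against siOCT4 a + b (without it 17, 15, 15, 21 and 17). With the wild-type fragment of the +SssI ESC pool as reference, over 23 CpGs, the mean differences were 21.9 points for all siRNAs, 13.4 for siSOX2 b, 23.6 for siSOX2 a + b and 20.5 for siOCT4 a + b. The departure from additivity with that reference, over the 18 upstream CpGs, was -23.2 points. The departure was -39.1 points if ratios of the methylated share multiply and -12.2 points if ratios of the unmethylated share do. As medians over CpGs, the upstream level was 20.4% with the non-targeting siRNA and 34.4% with siOCT4 a + b, and the downstream level 17.2% with siSOX2 b, 28.4% with siSOX2 a + b, 13.3% with siOCT4 a + b and 30.7% with all siRNAs. Without the CpG nearest the motif the downstream means were 36.0%, 42.2%, 32.1% and 40.1% in that order. Regions at 20 points held 0 CpGs for all siRNAs, siSOX2 a + b and siOCT4 a + b. With all siRNAs each CpG from U103 to U84 was called and at least 20 points higher, but that run does not exceed 50 bp. At 5 points the regions held 12 CpGs for all siRNAs and 12 for siOCT4 a + b. For siSOX2 a + b over siSOX2 b they held 15 where the 10-point rule gave 0, the run from U121 to U84 being too short at 10 points. No paired analysis was possible because each treatment has 1 library and no replicate number. Depth limited the downstream CpGs, with 0 reads in the non-targeting library, 121 to 124 in the wild-type fragment of the pool and 474 to 477 with siSOX2 b.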

Other observations

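The line with the unmethylated insert and the wild-type motif, given no siRNA, had an upstream mean of 17.0% (95% Wilson interval 15.3 to 18.8), and the wild-type fragment of the +SssI ESC pool 17.98% (14.9 to 21.6), both below the 24.3% (22.2 to 26.5) of the non-targeting siRNA library. At U32 the order was the reverse, with 3.10% in the line without siRNA, 6.39% in the pool fragment and 1.17% with the non-targeting siRNA. The line was also slightly above the non-targeting library at U291 (19.7% and 19.2%). The pool fragment was above it at U208 (9.07% and 7.73%) and slightly at U101 (13.9% and 13.6%). Downstream, where the non-targeting library had no reads, the line had 13.0% (11.5 to 14.6) and the pool 9.59% (5.55 to 16.1, at a median of 123 reads), compared with 27.1% to 37.5% across the 4 knockdown libraries. CpG D252 was the most methylated downstream CpG in the line (42.3%), in the pool (25.8%) and in each of the knockdown libraries.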
